A study of Mus musculus with 21 samples.

Results

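The mitochondrial ribosomal proteins, the 76 genes whose symbols begin with Mrpl or Mrps among the 12791 genes listed in the tables, were followed in whole uteri of C57BL/6J wild type mice at 5 weeks, 8 weeks and old age. Members were chosen by symbol alone. By general knowledge of the proteins, 49 belong to the large subunit and 27 to the small one, and 47 have a bacterial counterpart while 29 are additions of mitochondria. The values came from 7 uteri at 5 weeks, 7 at 8 weeks and 6 aged. Every mouse, young animals included, had received pregnant mare serum gonadotropin (PMSG, a hormone that drives ovarian follicles and through them the estrous cycle), 5 or 7.5 units each and 48 hours before the uterus was taken. The labels do not assign doses to mice. Each age falls into 2 sets by replicate number, sample name and old age: a later set (5, 5 and 4 uteri at 5 weeks, 8 weeks and old age, the last at 79 weeks) and an earlier set (2 uteri at each age, the aged ones at 60 to 75 weeks). Kit, instrument and, for aged mice, exact age cannot be told apart from set. The protocols name 2 RNA kits and 2 sequencers without assigning them.

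The mitochondrial ribosome is built from a pair of ribosomal RNAs made inside the organelle and from proteins that nuclear genes encode, that the cytosol translates and that are then imported. It makes the few membrane proteins of the respiratory chain that mitochondrial DNA encodes. Members with a bacterial counterpart form its core, and the mitochondrial additions cover much of its surface. Some proteins with these symbols work elsewhere or carry a misleading letter: Mrps30 and Mrps18a are large subunit proteins, Mrps36 is best known as a subunit of the ketoglutarate dehydrogenase complex, and Mrpl58 is a hydrolase that frees stalled ribosomes.

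Levels are in CPM, read counts which the authors scaled to 1e+06 over the listed genes of each library. Differences are on the log2(CPM + 1) scale, which understates the change of low genes. They were tested with limma with set as a term, and p-values were adjusted by Benjamini-Hochberg over all 12791 genes, with adjusted p under 0.05 counted as passing. No listed gene had under 10 reads in any library, and each of the 76 members was tested. Mrpl23 and Mrpl53 were not analysed here. Total reads were 19100690 to 30689439 in the later set and 12204573 to 14448283 in the earlier set. The column header of 15 of 20 tables names a sample other than that of the table, with a different age in 2 cases and a different set in 2. Columns were taken as their headers say, and aged replicate 3 was not analysed here. Of markers chosen for the tissue, 15 of 18 epithelial, 14 of 14 endometrial stromal and 13 of 14 smooth muscle genes were listed. No source says that replicates are separate animals, so p-values measure the spread between these samples, which may in part be technical.

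Promoters of the 5 members with the largest falls against 8 weeks among those matched to a RefSeq promoter are printed to show the sequence around the start of the genes the results turn on. Each has 250 bases before and 50 after the start, from RefSeq on GRCm38.p6, and reads 5′ to 3′ on the gene's strand. Capitals mark any exact match, on either strand, to CCGGAAGT of GABPA and other ETS factors, AAGATGGCG of YY1 or CACGTG of the MYC E-box. The factors named are known regulators of nuclear genes for mitochondria or, for MYC, of growth genes. The windows are chr16:92058086-92058385 on the plus strand for Mrps6 and, on the minus strand, chr9:98601630-98601929 for Mrps22, chr17:12916042-12916341 for Mrpl18, chr6:71823735-71824034 for Mrpl35 and chr13:14612988-14613287 for Mrpl32.
Mrps6: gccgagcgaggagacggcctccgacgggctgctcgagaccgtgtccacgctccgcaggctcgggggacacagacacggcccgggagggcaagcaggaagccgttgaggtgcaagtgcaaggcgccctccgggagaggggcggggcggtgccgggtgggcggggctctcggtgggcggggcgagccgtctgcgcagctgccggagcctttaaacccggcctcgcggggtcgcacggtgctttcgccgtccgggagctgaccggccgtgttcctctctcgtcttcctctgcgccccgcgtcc
Mrps22: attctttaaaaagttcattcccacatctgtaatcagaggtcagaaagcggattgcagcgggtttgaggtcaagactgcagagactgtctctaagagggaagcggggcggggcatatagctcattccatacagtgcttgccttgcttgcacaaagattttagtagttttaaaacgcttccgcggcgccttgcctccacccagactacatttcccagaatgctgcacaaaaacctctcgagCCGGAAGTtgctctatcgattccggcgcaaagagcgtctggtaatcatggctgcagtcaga
Mrpl18: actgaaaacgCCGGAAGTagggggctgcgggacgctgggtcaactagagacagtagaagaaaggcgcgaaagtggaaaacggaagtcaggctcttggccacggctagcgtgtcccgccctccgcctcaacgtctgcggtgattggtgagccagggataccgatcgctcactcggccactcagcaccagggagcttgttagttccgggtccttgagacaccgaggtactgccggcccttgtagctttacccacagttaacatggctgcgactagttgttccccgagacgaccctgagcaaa
Mrpl35: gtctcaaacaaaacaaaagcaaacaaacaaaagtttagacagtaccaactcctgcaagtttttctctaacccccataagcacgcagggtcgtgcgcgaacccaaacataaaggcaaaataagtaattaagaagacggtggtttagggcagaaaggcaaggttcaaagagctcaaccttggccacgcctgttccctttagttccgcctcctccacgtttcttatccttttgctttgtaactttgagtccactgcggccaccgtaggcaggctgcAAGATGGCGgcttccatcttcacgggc
Mrpl32: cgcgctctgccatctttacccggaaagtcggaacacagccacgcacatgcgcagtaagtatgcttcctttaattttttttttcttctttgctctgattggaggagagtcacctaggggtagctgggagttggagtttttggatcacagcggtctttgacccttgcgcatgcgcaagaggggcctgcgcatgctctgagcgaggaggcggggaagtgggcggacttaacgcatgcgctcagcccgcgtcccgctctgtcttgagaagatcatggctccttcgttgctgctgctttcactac

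The Mrps22 and Mrpl18 windows held the ETS letters, and that of Mrpl35 the YY1 letters just after the start. The Mrpl32 window and that of Mrps6, the member with the largest fall, held none of the letters searched for capitals. RefSeq promoters were found for 67 of the 76 members, 73 windows in all, beside 32851 promoters of the whole table and 12854 of listed genes. ETS letters occurred in 16.4% of member windows, 7.8% of those of listed genes and 3.89% of all promoters. YY1 letters occurred in 11% of member windows, 2.89% of those of listed genes and 1.4% of all promoters. The E-box letters occurred in 9.59% of member windows, 9.84% of those of listed genes and 7.15% of all. GGGCGG of SP1, not marked by capitals, was in 52.1% of member windows, 62.2% of those of listed genes and 35.7% of all. Matches of different motifs marked by capitals overlapped in 0 cases. The ETS or YY1 letters were in 6 of the 20 matched members that fell in aged against 8-week uteri and in 13 of the 47 matched members that did not pass.

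Members were moderately and evenly expressed. Mean levels over the 20 libraries ran from 18.3 to 128 CPM with a median of 51.7 CPM, against 33.7 CPM over all listed genes. Per kilobase of annotated exon, members ran from 3.46 to 124 CPM with a median of 21.2 CPM, against 6.97 CPM over all listed genes. The highest per kilobase were Mrps21 (124 CPM per kilobase), a small subunit core protein, Mrpl52 (115) and Mrpl34 (91.3), and the lowest were Mrps30 (3.46), Mrps10 (4.21) and Mrps35 (4.38). Annotated exon length runs from 607 bases in Mrpl34 to 8631 in Mrps35, including long untranslated ends, so this order also reflects how the genes are annotated. After age and set, the SD of the residuals had a median of 0.29 on the log2 scale, against 0.40 over all genes, and 72 of 76 members lay below the latter. Mrpl39 (0.13), a large subunit protein related to threonyl-tRNA synthetase, Mrpl10 (0.16), a protein of the base of the large subunit's stalk, and Mrpl44 (0.17), which has the fold of a double-strand RNA nuclease, were the most even. Mrps6 (0.49), Mrps28 (0.43) and Mrpl55 (0.41) were the least even.

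Aged uteri had less RNA of many mitochondrial ribosomal proteins than 8-week uteri, and no member was higher at the threshold. Of 76 members, 21 fell and 0 rose, that is 27.6% lower, where 8.53% of all genes were lower and 8.64% higher (17.2% in either direction). The difference was negative for 72 members (94.7%), against 45.4% of all genes, and its median was -0.33 over members, against 0.05 over all genes. At an unadjusted p under 0.05, 37 members were lower and 0 higher, where 4101 of 12791 genes had such a p in either direction. In bulk tissue, fewer cells of a type and less RNA per cell cannot be told apart.

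**Figure D1:**
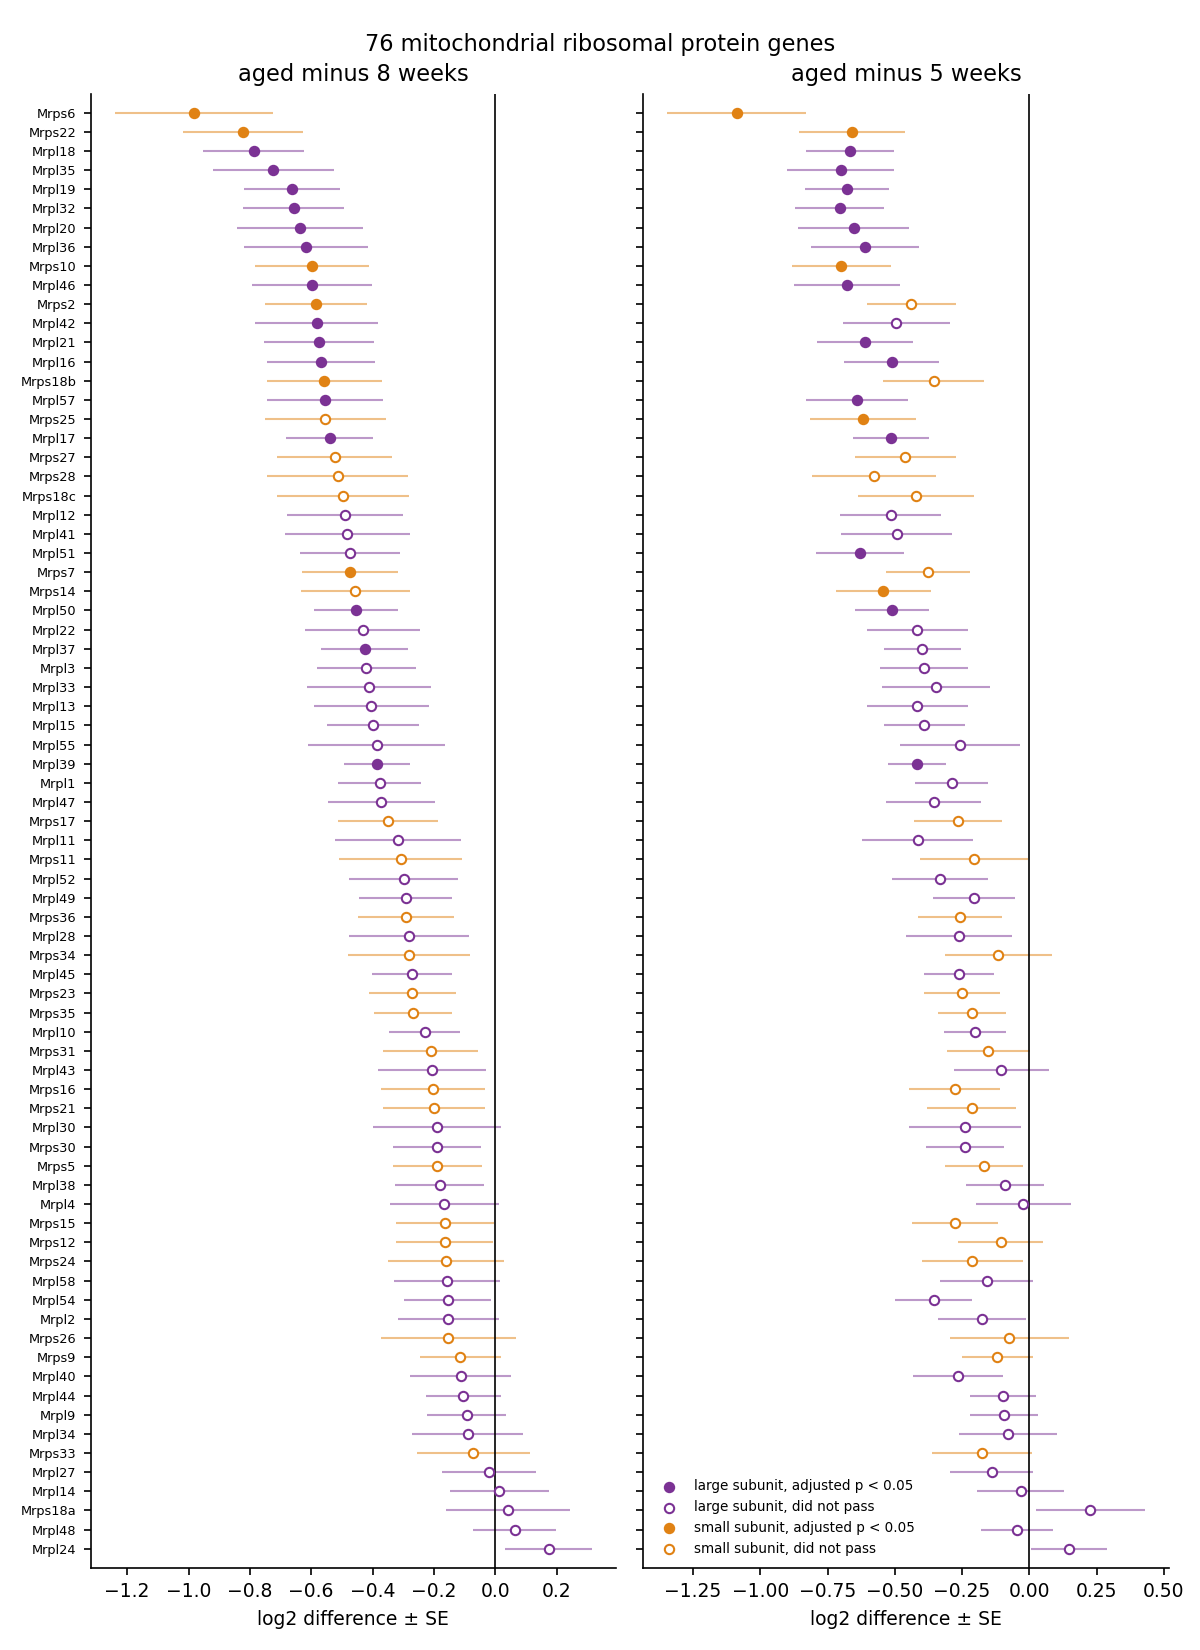
Log2 difference ± SE of each of the 76 members, aged minus 8 weeks in the left panel and aged minus 5 weeks in the right panel, in the order of the left panel. Filled points passed an adjusted p under 0.05: 21 members on the left and 19 on the right, each of them left of 0.

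The steepest member was Mrps6, a small subunit core protein with a bacterial counterpart (chr16:92058270-92112227, plus strand). Its lowest, median and highest levels were 35.6, 45.1 and 58.7 CPM in aged uteri, against 46.1, 85.1 and 168 CPM at 8 weeks. One 8-week library, replicate 6, lay inside the aged range, and 3 aged libraries lay above it. The log2 difference was -0.98 ± 0.26 (SE, limma adjusted p = 0.0139), a fold of 0.506. Its annotated exons share 19.9% of their length with Slc5a3 and Gm49711 on the same strand, and reads of these genes could be split between them.

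Mrps22, a mitochondrial addition to the small subunit (chr9:98588730-98601660, minus strand), had 10.9, 19.9 and 26.3 CPM as lowest, median and highest level in aged uteri, against 24.99, 37.1 and 44.0 CPM at 8 weeks. The groups overlapped through aged replicate 5 and 8w replicate 4 alone, and the difference was -0.82 ± 0.20 (adjusted p = 0.00774). Mrpl18, whose bacterial counterpart binds the small ribosomal RNA of the large subunit (chr17:12911349-12916345, minus strand), had 27.1, 33.6 and 42.8 CPM in aged uteri, against 45.9, 64.2 and 73.1 CPM at 8 weeks. Every aged library lay below every 8-week library, and the difference was -0.79 ± 0.16 (adjusted p = 0.0031), the lowest adjusted p of any member in this comparison. Its exons share 10.1% of their length with Tcp1 on the opposite strand, and the library kit did not keep strand.

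Further large subunit core proteins followed. Mrpl35 (chr6:71812997-71826969, minus strand) had 19.6, 30.9 and 39.4 CPM in aged uteri, against 38.4, 47.3 and 67.4 CPM at 8 weeks. Its groups overlapped through aged replicate 5 and 8w replicate 7 alone, and the difference was -0.72 ± 0.20 (adjusted p = 0.0167). Mrpl32, which the mitochondrial m-AAA protease trims before it joins the ribosome (chr13:14608184-14613165, minus strand), had 21.7, 27.8 and 39.8 CPM in aged uteri, against 39.4, 43.5 and 58.3 CPM at 8 weeks. Its groups overlapped through the same libraries as those of Mrpl35, and the difference was -0.66 ± 0.16 (adjusted p = 0.0107). Mrpl19 (chr6:81957851-81965958, minus strand) had 17.9, 23.3 and 25.6 CPM in aged uteri, against 23.8, 34.1 and 55.6 CPM at 8 weeks, with a difference of -0.66 ± 0.16 (adjusted p = 0.00718). One 8-week library, replicate 4, lay below the highest aged ones. Its exons share 36% of their length with Gcfc2 on the opposite strand.

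The other members among the 12 largest falls were the core proteins Mrpl20 (-0.64), Mrpl36 (-0.62), Mrps10 (-0.60) and Mrps2 (-0.58) and the mitochondrial additions Mrpl46 (-0.60) and Mrpl42 (-0.58), with adjusted p of 0.0217 to 0.0496. Mrpl46 shares 12.2% of its exon length with its neighbour Mrps11, also a member, on the opposite strand. Mrpl39 (chr16:84717576-84735742, minus strand) had a smaller difference, -0.39 ± 0.11 (adjusted p = 0.0199), but its levels were the most tightly grouped: 34.8, 38.7 and 43.3 CPM in aged uteri, against 45.3, 52.1 and 62.8 CPM at 8 weeks. Mrpl18 and Mrpl39 were the 2 members with every aged library below every 8-week library, where 1.02% of all genes were so placed and 0.946% were above in every aged library. Mrpl24 (0.17), Mrpl48 (0.06) and Mrps18a (0.04), of the large subunit, had the highest differences, and none passed.

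**Figure D2:**
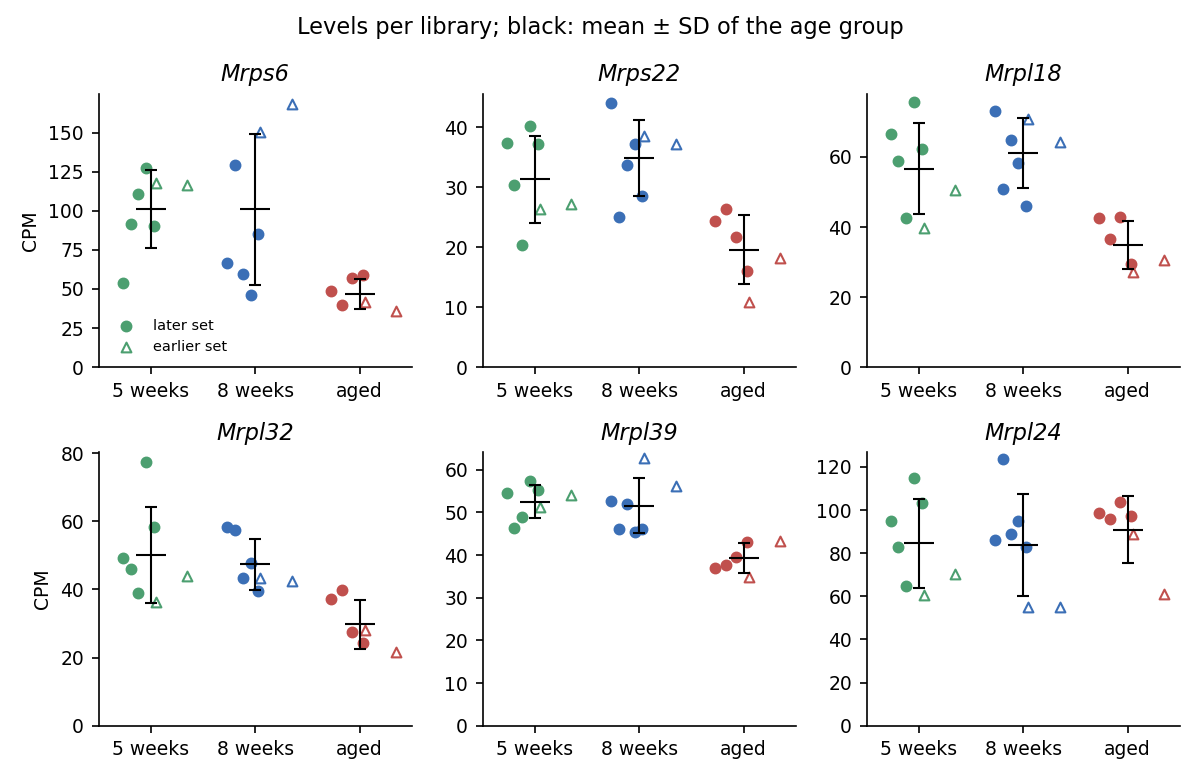
CPM of 6 members in each library at 5 weeks, 8 weeks and old age, with filled circles for the later set, open triangles for the earlier set and black bars for the mean ± SD of each age group. Aged points lie low among the points of Mrps6, Mrps22, Mrpl18 and Mrpl32 and below every younger point of Mrpl39, while Mrpl24, the member with the highest difference to 8 weeks, covers a like range at each age.

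Aged uteri also had less RNA of many members than 5-week uteri. Of 76 members 19 fell and 0 rose (25%), where 9.41% of all genes were lower and 12.7% higher (22.1% in either direction). The difference was negative for 74 members, with a median of -0.31 against 0.09 over all genes. At an unadjusted p under 0.05, 33 members were lower and 0 higher, where 4633 of 12791 genes had such a p in either direction. Both comparisons use the same 6 aged libraries, so their lists are not independent. Over both, 24 members passed in at least one and 52 in neither.

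Mrps6 had 35.6, 45.1 and 58.7 CPM in aged uteri, against 54.1, 111 and 128 CPM at 5 weeks, a difference of -1.09 ± 0.26 (adjusted p = 0.00573). The single 5-week library inside the aged range was 5w replicate 3, whose column lies in a table attached to an aged sample. The mean log2(CPM + 1) over all members in 5w replicate 3 was 5.99, the highest of any library. What its Mrps6 level reflects was not tested. Mrpl32 had a difference of -0.71 ± 0.16 (adjusted p = 0.00521) and Mrpl35 of -0.70 ± 0.20 (adjusted p = 0.0161). Mrps10, a small subunit core protein, had 9.70, 27.2 and 37.7 CPM in aged uteri, against 25.1, 41.1 and 52.7 CPM at 5 weeks. Its groups overlapped, with 3 libraries of each inside the other's range, and its difference was -0.70 ± 0.19 (adjusted p = 0.0116).

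Mrpl19 had 17.9, 23.3 and 25.6 CPM in aged uteri, against 28.3, 36.4 and 45.7 CPM at 5 weeks, with no overlap (difference -0.68 ± 0.16, adjusted p = 0.00476). Mrpl39 likewise did not overlap: it had 34.8, 38.7 and 43.3 CPM in aged uteri, against 46.4, 54.0 and 57.3 CPM at 5 weeks (difference -0.42 ± 0.11, adjusted p = 0.0104). Mrpl39 was thus the 1 member with every aged library below every younger one, a placing that 0.571% of all genes had, and against 5 weeks alone 1.43% of all genes lay below and 1.65% above in every aged library. Mrpl57 (-0.64), Mrpl51 (-0.63) and Mrps25 (-0.62), mitochondrial additions, also fell and were among the 12 largest falls against 5 weeks. Mrps25 shares 69.8% of its exon length with Nr2c2 on the opposite strand. Mrps18a (0.23), Mrpl24 (0.15) and Mrpl4 (-0.02) had the highest differences, and none passed.

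These counts depended on single libraries and on the mapping of columns. The count against 8 weeks came to 7, 10 and 12 without aged replicates 1, 2 and 7 and to 7, 8, 9 and 12 without 8w replicates 1, 2, 3 and 5, and that against 5 weeks to 10 without aged replicate 1. With columns attached by file instead of header, 1 member fell against 8 weeks and 3 against 5 weeks. The shares of all genes lower in these fits are not given here, so the members are not set against them. Of the members called, 7 against 8 weeks (Mrpl17, Mrpl18, Mrpl19, Mrpl32, Mrpl35, Mrps6, Mrps22) and 10 against 5 weeks (Mrpl17, Mrpl18, Mrpl19, Mrpl32, Mrpl35, Mrpl39, Mrpl50, Mrpl51, Mrps6, Mrps10) passed whichever of the 20 libraries was left out. How many of all genes passed in every such fit was not counted. Mrpl17, a large subunit core protein, had 64.3, 69.7 and 87.3 CPM in aged uteri, against 77.0, 92.9 and 158 CPM at 8 weeks, a difference of -0.54 ± 0.14 (adjusted p = 0.0141).

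Between the young ages no member passed. The 8-week minus 5-week difference had a median of 0.01 over members and 0.03 over all genes and ran from -0.20 in Mrpl54 to 0.20 in Mrps18b. In limma, 0 members and 0 of all genes (0%) passed, and 0 members and 139 genes had an unadjusted p under 0.05. Mrps18b, Mrpl51 (-0.16) and Mrpl54 had the smallest p among members.

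The aged difference was also taken within each set of libraries. Within the later set the aged minus 8-week difference had a median of -0.14 over members, against 0.03 over all genes, and was negative for 58 members. Within the earlier set its median was -0.77, against 0.07 over all genes, and 74 were negative. All 21 called members had a negative difference in both sets. Fitted alone, the later set (4 aged and 5 8-week uteri) gave 0 called members, where 1.03% of all genes were lower and 0.399% higher, and the earlier set (2 and 2 uteri) gave 45, where 13.2% were lower and 15% higher. For aged minus 5 weeks, the median was -0.23 within the later set, with 65 members negative, and -0.54 within the earlier set, with 74 negative. Alone, the later set gave 0 called members, where 2.21% of all genes were lower and 1.88% higher, and the earlier set 19, where 8.55% were lower and 11.9% higher.

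**Figure D3:**
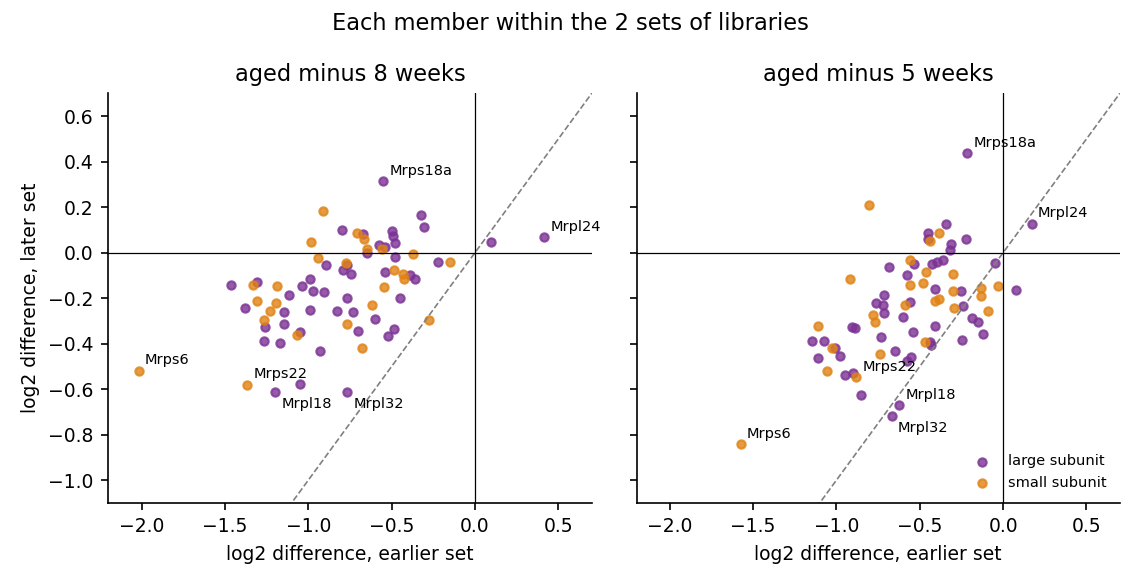
Log2 difference of each member within the later set (vertical axis) against that within the earlier set (horizontal axis), for aged minus 8 weeks on the left and aged minus 5 weeks on the right, with a dashed line of equality. On the left 73 and on the right 64 points lie above the line, at a lower value in the earlier set, and Mrpl18 and Mrpl32 lie just below it on the right.

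The difference between the sets was tested itself, as the aged minus 8-week difference in the later set less that in the earlier set. It was positive for 73 of 76 members, with a median of 0.65 against -0.01 over all genes. By limma 0 members passed, as did 0.0235% of all genes. At an unadjusted p under 0.05 were 29 of 76 members, all positive, and 1855 of 12791 genes in either direction. Without aged replicate 5, 2 members passed, and with columns attached by file 12 passed, all positive. The smallest adjusted p were 0.0834 for Mrpl57 (-0.14 in the later and -1.46 in the earlier set), 0.0901 for Mrps7, a small subunit core protein (-0.15 in the later and -1.19 in the earlier set), and 0.113 for Mrpl12, which recruits translation factors to the stalk (-0.13 in the later and -1.31 in the earlier set). For Mrpl32 the later and earlier sets gave -0.61 and -0.77, the nearest pair among the largest falls, and for Mrps6 they gave -0.52 and -2.02. The corresponding test against 5 weeks gave 0 called members and 0% of all genes. There, 7 of 76 members and 1079 of 12791 genes had an unadjusted p under 0.05.

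The mean log2(CPM + 1) over the 76 members gives each library's level. In the earlier set it was 5.39 and 5.55 at 5 weeks, 5.73 and 5.68 at 8 weeks and 4.82 and 5.02 in aged replicates 1 and 2, the lowest of all 20 libraries. In the later set it was 5.53 to 5.99 at 5 weeks, 5.46 to 5.95 at 8 weeks and 5.67, 5.43, 5.76 and 5.32 in the 4 aged libraries. These later ranges overlap, with aged libraries at places 6, 8, 13 and 14 of 14 from the top. Several other lists also had a larger median difference in the earlier set, which was not tested. Endometrial stromal markers did not, with an aged minus 8-week median of -0.52 in the later and 0.15 in the earlier set. Smooth muscle markers had a median aged minus 8-week difference of -0.20 in the later and 2.05 in the earlier set, endothelial markers 0.12 in the later and 1.27 in the earlier, red blood cell markers 0.97 in the later and 3.19 in the earlier, and immune markers 0.65 in the later and 1.23 in the earlier. For smooth muscle markers the mean log2(CPM + 1) was 7.18 to 9.38 in aged and 8.25 to 9.29 in 8-week uteri of the later set, and 7.59 to 9.48 in aged and 6.25 to 6.63 in 8-week uteri of the earlier set. The part of these lists in the members' result was not tested.

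**Figure D4:**
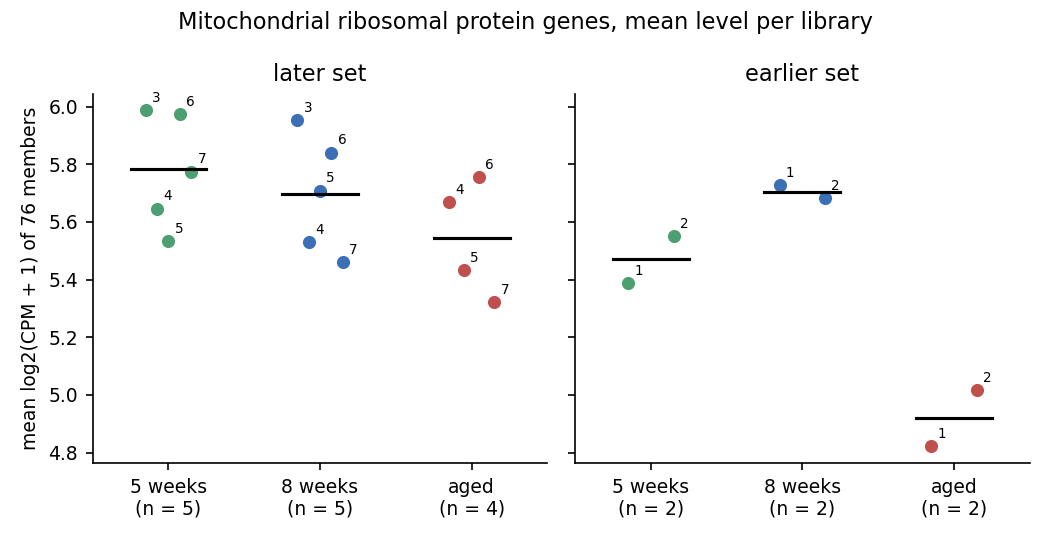
Mean log2(CPM + 1) over the 76 members in each library, by age, for the later set on the left and the earlier set on the right; numbers are replicates and bars are group means. Aged libraries of the earlier set stand at 4.82 and 5.02, below all others, and those of the later set lie among the younger ones.

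With age group as a term, the sets themselves differed for 47.4% of members, a smaller share than the 58.7% of all genes. The aged mice of the sets also differ in age, 79 weeks in the later and 60 to 75 weeks in the earlier set. In the later set, 29 members were higher and 7 lower than in the earlier set, where 20.5% of all genes were higher and 38.3% lower (58.7% in either direction), with a median of 0.25 against -0.20 over all genes. With quantile normalization, which brought the median of all genes to -0.01, the split became 54 higher and 1 lower, and with median centring 50 higher and 3 lower. The shares of all genes under these scalings are not given here, so the members are not set against them. Mrps36 had 15.2 to 31.3 CPM in the 14 libraries of the later set, against 3.52 to 4.89 CPM in the 6 of the earlier set (difference 2.19 ± 0.14, limma adjusted p = 8.03e-11). Mrps33, a mitochondrial addition to the small subunit, had 30.1 to 66.5 CPM in the later and 7.54 to 10.3 CPM in the earlier set (2.24 ± 0.16, adjusted p = 7.72e-10), and Mrpl48 59.0 to 112 CPM in the later and 25.8 to 31.8 CPM in the earlier set (1.39 ± 0.12, adjusted p = 1.01e-08). How many of all genes had ranges apart between the sets was not counted. Mrps36 and Mrpl48 have named pseudogenes in the annotation, so how their reads were assigned is uncertain, while Mrps33 has none. The part of pseudogenes in the set differences was not tested. Mrpl12 (-0.77), Mrpl43 (-0.64) and Mrpl9 (-0.61) were lower in the later set.

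Members of both subunits fell in aged uteri, where 8.53% of all genes were lower against 8 weeks and 9.41% against 5 weeks. Of 49 large subunit members 15 fell against 8 weeks and 14 against 5 weeks, with medians of -0.38 and -0.36. Of 27 small subunit members 6 fell against 8 weeks and 5 against 5 weeks, with medians of -0.29 and -0.27. Of 47 members with a bacterial counterpart 14 fell against 8 weeks and 12 against 5 weeks, and of 29 mitochondrial additions 7 in each, with medians against 8 weeks of -0.39 for the counterparts and -0.28 for the additions. The classes were not tested against each other. Of the 44 members whose annotated exons touch no other gene's exons, 13 fell against 8 weeks and 11 against 5 weeks, with medians of -0.31 and -0.28.

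The Mrps18 paralogs, which descend from a single bacterial protein, took different values. Mrps18b, of the small subunit, fell against 8 weeks: it averaged 15.5 ± 4.88 CPM in aged uteri and 22.8 ± 3.86 CPM at 8 weeks (SD, n = 6 and 7), a difference of -0.56 ± 0.19 (limma adjusted p = 0.0464). Mrps18c, which holds the place of the bacterial protein in the small subunit, averaged 17.6 ± 6.03 CPM in aged and 25.9 ± 9.18 CPM in 8-week uteri (-0.50 ± 0.22, limma adjusted p = 0.116). Mrps18a, of the large subunit, averaged 68.6 ± 20.97 CPM in aged and 65.6 ± 13.4 CPM in 8-week uteri (0.04 ± 0.20, limma adjusted p = 0.911). Mrps18b shares 30.5% of its exon length with Gm16279 on the opposite strand, and Mrps18c 23.2% with Gm43511 on the same strand.

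A further 6 members, named for their roles, did not pass. Mrpl12 had a difference of -0.49 ± 0.19 to 8 weeks (adjusted p = 0.0777) and Mrps12, at the decoding centre, of -0.17 ± 0.16 (adjusted p = 0.497). Mrpl44 had -0.10 ± 0.12 (adjusted p = 0.589), Mrpl58 -0.16 ± 0.17 (adjusted p = 0.56) and Mrps30 -0.19 ± 0.14 (adjusted p = 0.386). Mrps36 had -0.29 ± 0.16 (adjusted p = 0.209), at nearly the same value in the later (-0.30) and the earlier (-0.27) set.

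Some other genes of mitochondrial protein synthesis passed. Among all genes, 8.53% were lower and 8.64% higher against 8 weeks, and 9.41% were lower and 12.7% higher against 5 weeks. Of 5 mitoribosome proteins with other symbols, 0 passed against 8 weeks (median -0.15), with Ptcd3 at -0.45 and an adjusted p of 0.0954. Of 28 assembly factors, 0 passed against 8 weeks (median -0.01), and 2 rose against 5 weeks: Mtg2, a GTPase of the large subunit's assembly (0.55, adjusted p = 0.0192), and Ngrn (0.38, adjusted p = 0.0335). Of 16 translation factors, 1 fell in each comparison, Gfm1, the elongation factor that moves the ribosome along: it averaged 32.2 ± 4.64 CPM in aged and 53.0 ± 22.4 CPM in 8-week uteri (-0.63, limma adjusted p = 0.0312). Of 20 genes that charge mitochondrial tRNAs, 3 fell in each comparison, Qrsl1 (-0.78 to 8 weeks), Nars2 (-0.59) and Yars2 (-0.58). Of 10 genes of mitochondrial transcription and DNA upkeep, 0 passed in either. Ppargc1a, a coactivator of mitochondrial biogenesis, rose as the only one of 11 regulators, with 14.1 ± 8.28 CPM in aged and 5.19 ± 2.29 CPM in 8-week uteri (1.15, limma adjusted p = 0.00946).

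Other nuclear genes for mitochondrial proteins fell too, where 8.53% of all genes were lower against 8 weeks and 9.41% against 5 weeks. Of 27 genes of protein import, 6 fell against 8 weeks and 10 against 5 weeks, with medians of -0.42 and -0.40, led by the receptor Tomm70a (-0.61 to 8 weeks, adjusted p = 0.00455) and the channel gene Timm17a (-0.53, adjusted p = 0.00935). Of 13 abundant proteins taken as markers of mitochondrial mass, 7 fell against 8 weeks and 6 against 5 weeks, with medians of -0.47 and -0.42. Slc25a5, an ADP/ATP carrier, averaged 277 ± 111 CPM in aged and 524 ± 94.8 CPM in 8-week uteri (-0.97, limma adjusted p = 0.000496), and Vdac1, a pore of the outer membrane, 252 ± 37.6 CPM in aged and 377 ± 108 CPM in 8-week uteri (-0.57, limma adjusted p = 0.00218). The summed level of the 13 genes was 2487 to 3187 CPM in aged and 3179 to 4480 CPM in 8-week libraries. The 7 listed mRNAs of the mitochondrial DNA had a median of 0.42, with 0.03 in the later and 1.01 in the earlier set. Of them mt-Nd5 (0.89, adjusted p = 0.0119) and mt-Nd6 (0.83, adjusted p = 0.00652) rose, and the other 5 did not pass.

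Of 75 cytosolic ribosomal protein genes, 0 passed against 8 weeks and 0 against 5 weeks, with a median of 0.01 in both, while 73 were higher in the later than in the earlier set, with a median of 3.63. Of 36 cell cycle genes 35 fell in each comparison, with medians of -2.72 against 8 weeks and -3.32 against 5 weeks. Their median was -2.77 in the later set and -2.92 in the earlier set, for aged minus 8 weeks. Immune markers had a median of 0.59 with 4 of 11 higher, and their summed level was 1509 to 5700 CPM in aged and 410 to 1494 CPM in 8-week libraries. All 4 listed red blood cell markers were higher against 8 weeks (median 1.64), with sums of 51.8 to 281 CPM in aged and 16.1 to 63.1 CPM in 8-week libraries. Against 5 weeks 0 of them passed (median 0.95), with sums of 29.1 to 156 CPM in 5-week libraries. Against 8 weeks, epithelial markers had a median of -0.37 with 0 lower and 2 higher of 15. Endometrial stromal markers had -0.29 with 1 lower of 14 and endothelial markers 0.54 with 1 higher of 12. Of 24 estrogen-responsive genes 7 were lower and 1 higher (median -0.53), and of 6 listed markers of other tissues 0 passed (median 0.80). Beside these lists, 8.53% of all genes were lower and 8.64% higher against 8 weeks, and 9.41% were lower against 5 weeks. The part of these lists in the members' difference was not tested.

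**Figure D5:**
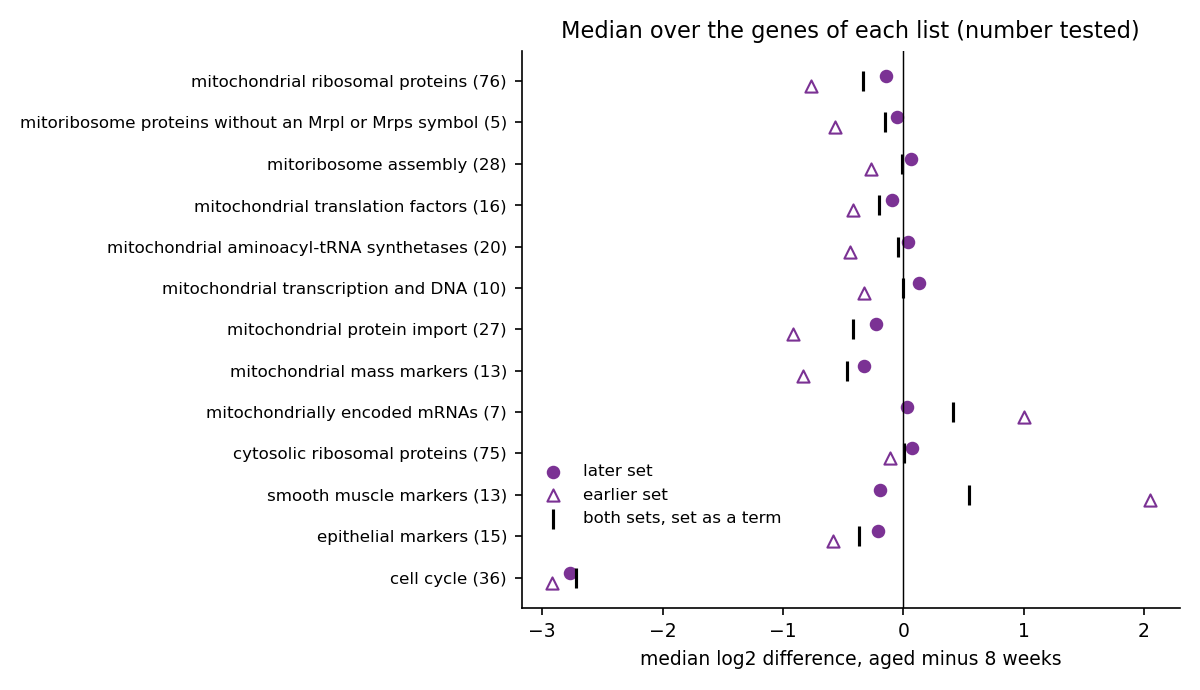
Median log2 difference, aged minus 8 weeks, of each gene list with the number of genes tested, for the later set (circles), the earlier set (triangles) and both sets with set as a term (bars). Mitochondrial ribosomal proteins (-0.14 and -0.77 in the sets), import genes and mass markers lie left of 0 in both sets. So do mitoribosome proteins with other symbols, translation factors, epithelial markers (-0.21 in the later and -0.58 in the earlier set) and cell cycle genes. Cytosolic ribosomal proteins lie near 0, and smooth muscle markers lie on opposite sides of 0.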

How the data were processed

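Whole uterus RNA was sequenced, and 20 libraries were analysed. Tables that the authors deposited hold CPM, read counts scaled to 1e+06 over the listed genes. Fastp, STAR, featureCounts, edgeR and GRCm38 are named, per the submitters' processing notes, with no versions or roles. Reads were single 60 bp or paired 150 bp from 2 instruments and the kit does not keep strand, per the labels' protocols. Total reads were recomputed from the steps of the CPM values. Motifs were sought as exact letters on both strands.

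Symbols beginning with Mrpl or Mrps were the members. Limma 3.58.1 in R 4.3.3 (lmFit, eBayes with trend) was fitted to log2(CPM + 1) of all 12791 genes and 20 libraries with age group and set as terms, and with 1 mean per age and set to compare the sets. P-values were adjusted by Benjamini-Hochberg. The code was tested on simulated data. Subunit classes and gene lists came from general knowledge, the cytosolic and mitochondrial DNA lists from symbol prefixes after values were seen. Members and lists were chosen with earlier results of these data known. Coordinates and exon overlaps came from GENCODE mouse release 21 on GRCm38, which held 12767 of the gene identifiers. Named members were the 12 largest called falls and 3 highest differences in each aged comparison, the 3 smallest p in the others, the 3 extremes of level and evenness and members chosen for their role; of other lists, up to 3 genes with the smallest p. Mrpl17, Mrpl50, Mrpl43, Mrpl9 and Mrps11 were named after their values were seen. Alternatives changed the pseudocount, a filter at a mean of 10 CPM, the scaling, the set term, the sample mapping, the weights and the libraries included, 1 at a time.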

Additional observations from a re-analysis of the deposited data

Results flagged for a closer look

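One value stood apart within its age group. Mrpl24, a large subunit protein that did not pass in either aged comparison, had 61.1 CPM in aged replicate 2, while the next aged library had 88.7 CPM and the highest 104 CPM. The gap was 0.648 of the range of the 6 aged libraries, above Dixon's 95% critical value of 0.625. Of 117 groups of values examined, those of 38 named members and of the mean over all members in each age group, 1 stood apart in this way, and chance gives about 1 in 20.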

How the results depend on the processing

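With 21 members lower against 8 weeks and 19 against 5 weeks, the pseudocounts of 0.1 and 5, the filter at a mean of 10 CPM, quantile normalization and median centring kept both counts within 1.5 times and both medians negative. Without the set term the counts came to 6 and 10. The later set alone gave 0 and 0, with a median of -0.14 against 8 weeks, and the earlier set alone gave 45 against 8 weeks, with medians of -0.77 and -0.54. Columns attached by file gave 1 and 3, and 12 members for the difference between the sets. Array weights gave 32 against 8 weeks, in a fit that weighted aged replicate 4 at 7.84 and the other aged libraries at 0.259 to 1.18. The 44 members without shared exons, an alternative chosen after seeing the data with fewer members by construction, gave 13 and 11. The set comparison, with 36 members called, gave 55 under quantile normalization and 13 by file. Leaving out each library in turn gave 7 to 29 members against 8 weeks, with medians of -0.41 to -0.28, and 10 to 26 against 5 weeks, with medians of -0.38 to -0.24. It gave 0 to 2 for the difference between the sets. The shares of all genes called under the alternatives are not given here, except for each set alone. The cause of these moves was not tested, apart from the fewer samples in some of them.

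With the replicate number as a block the counts were 7 against 8 weeks and 14 against 5 weeks, with a median of -0.28 in both. Same-numbered libraries did not deviate together, with correlations of -0.51 to 0.28, so the numbers were not taken as pairs. No called difference reversed under the alternatives run. The planned edgeR test on recovered reads was not run. The earlier set has 2 libraries per age, so its estimates rest on the least data.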
